A study of Rattus norvegicus with 10 samples.

Results

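Among the probes of the Arraystar Rat LncRNA Array V3, 50 probes designed by Agilent are printed 10 times each, at places scattered over the array, so that the repeats show how closely spots of the same probe read. Of these, 35 carried a RefSeq transcript accession, and 30 of the 35 matched a rat gene by that accession (version dropped). The 30 genes, 29 protein coding and 1 lncRNA (LOC108352165), are described here, out of 38650 probes for lncRNAs, mRNAs and these genes on the array. The choice used only the names of the probes and none of their values. The genes do not form a pathway. They include enzymes of pyruvate metabolism (Ldha, Pdk3), factors of RNA processing and translation (Pop7, Magoh, Eif4b, Mex3c), the transcription cofactor Med16, proteins of the ubiquitin system (Trim2, Ndfip1, Ndfip2), receptors and growth factors (P2rx2, Lhcgr, Gdnf, Fgf2), the inflammasome sensor Nlrp3, the adhesion molecule Cdh2, and proteins best known from neurons (Map2, Dlg4, Ppp2r2b) or from liver (Cyp2e1).

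Synovial RNA was measured in 5 CIA rats and 5 control rats, all male Sprague Dawley rats aged 7 to 8 weeks, with 1 array per rat. CIA (collagen-induced arthritis) was started with bovine type II collagen in complete Freund's adjuvant at the base of the tail and boosted with the same collagen in incomplete Freund's adjuvant, and tissue was taken after 21 days. The control rats were blank controls, for which no injection of adjuvant is described, so that responses to collagen and to adjuvant cannot be told apart. In bulk tissue, fewer cells of a type and less RNA per cell cannot be told apart either. The synovium is the lining of the joint, made of fibroblasts and macrophages over loose tissue with vessels, fat and nerves, and in arthritis it is known to thicken and to fill with immune cells. None of 86 marker genes in 16 lists of cell types and tissues was among the 30 genes, so the tissue label could not be checked with them.

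The values are the log2 of the scanner's signal after background subtraction, minus the 75th percentile of the array, averaged over the spots of a probe that the scanner software had not marked as outliers. A spot is called well above background by the software, and a gene was called so on an array when more than 0.5 of its kept spots were. The number of probes well above background ran from 12321 to 24282 on the CIA arrays and from 15603 to 26389 on the control arrays, and no spot was saturated. CIA 2, CIA 3 and control 3 had the fewest such probes and also the lowest 75th percentiles (log2 signals of 4.67, 4.64 and 4.34, against 5.29 to 6.18 on the other arrays), and are called the 3 dim arrays here. Arrays whose headers give the same scan time are taken here as 1 slide: CIA 2 to CIA 5 on slide 1, CIA 1 with control 1 on slide 2, and control 2 to control 5 on slide 3. Slide and group therefore cannot be told apart except between CIA 1 and control 1. Each p-value measures the spread between these 10 arrays.

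Promoter sequences were at hand for 24 of the 30 genes (RefSeq, GRCr8, 250 bases before to 50 bases after the start of the gene). Shown here is that of Cyp2e1, which had the widest spread between rats in the scaled values. That of Ldha is also shown, which had the narrowest such spread of the genes well above background on all arrays. Capitals mark each match to 3 motifs, searched on both strands. These were the TATA box, searched as TATAAA, the E-box, searched as CACGTG, and the GC box, for which the letters GGGCGG were used. A GC box on the other strand reads CCGCCC. The Cyp2e1 window is chr1:205269717-205270016 and the Ldha window is chr1:106507842-106508141, both on the plus strand.
Cyp2e1: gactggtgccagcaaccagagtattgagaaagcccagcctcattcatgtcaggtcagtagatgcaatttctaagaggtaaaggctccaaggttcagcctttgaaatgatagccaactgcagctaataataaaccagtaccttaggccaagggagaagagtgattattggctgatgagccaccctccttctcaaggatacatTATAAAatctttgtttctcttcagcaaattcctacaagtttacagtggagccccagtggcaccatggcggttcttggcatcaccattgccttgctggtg
Ldha: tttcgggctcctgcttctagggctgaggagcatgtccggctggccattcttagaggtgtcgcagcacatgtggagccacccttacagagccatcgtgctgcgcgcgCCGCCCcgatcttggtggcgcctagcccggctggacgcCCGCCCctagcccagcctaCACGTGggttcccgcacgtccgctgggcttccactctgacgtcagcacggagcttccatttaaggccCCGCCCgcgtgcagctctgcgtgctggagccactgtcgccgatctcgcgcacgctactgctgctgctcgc
In the Cyp2e1 window the only match was TATAAA, whose first base lay at -49 from the start. The Ldha window held a CACGTG with its first base at -87 and GC boxes of the other strand at -144, -106 and -20. Of all 33469 promoters of this length, 14.2% held the TATA box, 6.42% the E-box and 33.1% the GC box, and of the 24 promoters of these genes 16.7%, 8.33% and 33.3% did. A match describes the letters only.

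Few of the 30 genes, and a minority of all probes, were measured above background in the synovium on every array. Genes well above background on all 10 arrays were Trim2, Ldha, Pop7, P2rx2 and Ppp2r2b, 5 in all, where 11181 of all 38650 probes were so. Another 13 genes were well above background on no array, and 12 on some arrays. The matching counts over all probes were not made, so these 2 counts are not read as a trait of the genes. Among the 13 were Nlrp3, the sensor that starts the inflammasome and the release of interleukins, Cdh2, the adhesion molecule N-cadherin, Enpp1, which makes the pyrophosphate that holds back mineral deposits, and Cse1l, the export factor that returns importin alpha from the nucleus. The other 9 were Gdnf (a neurotrophic factor), Lhcgr (the receptor of luteinizing hormone), Mex3c (an RNA-binding ubiquitin ligase), Napepld (an enzyme that makes N-acylethanolamines), Nat1 (an arylamine acetyltransferase), Ndfip2 (an adaptor of Nedd4 ubiquitin ligases), Odf2l, Pld1 (a phospholipase D) and LOC108352165. Of the kept spots of Nlrp3, 2 of 93 were well above background, both on control 1. For these 13 genes the signal gives no measured level. On average per array it lay between 0.987 and 4.88 scanner units. Of their 1300 spots, 50.6% had a background-subtracted signal at or below 0, which the software had replaced by a positive value. A probe not well above background does not show that the gene was silent, and levels of different probes were not set against each other.

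**Figure D1:**
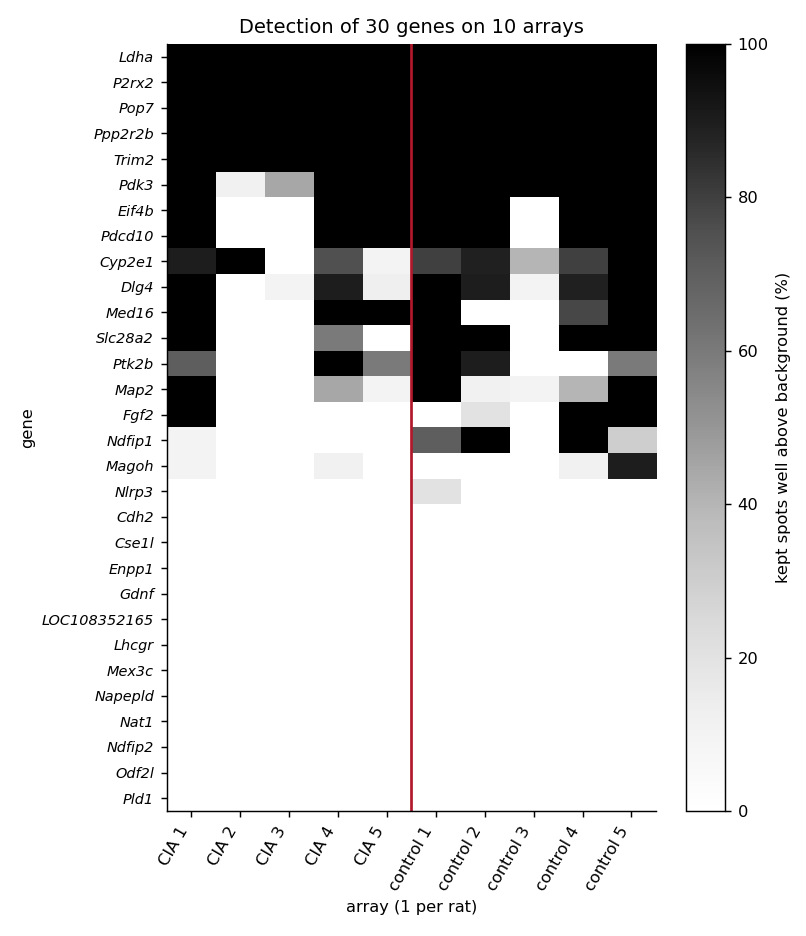
Share of kept spots well above background, in percent (darker is higher), for the 30 genes (rows) on the 10 arrays (columns, CIA left of the red line). The 5 genes at the top were well above background in all spots of all arrays, 13 genes at the bottom were so on no array, and CIA 2, CIA 3 and control 3 have the fewest dark cells.

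On each array, between 5 and 16 of the 30 genes were well above background. The 3 dim arrays had the fewest, with 5 on CIA 3 and 6 each on CIA 2 and control 3. CIA rats had 9.80 ± 4.32 such genes and control rats 12.8 ± 3.96 (SD, n = 5 each), which did not separate (p = 0.302 by a two-sided exact permutation test, where the smallest possible p is 0.0079). Pdcd10, a scaffold protein needed for the integrity of small vessels, and Eif4b, a translation initiation factor, missed detection on exactly the 3 dim arrays and had all their spots well above background on the other 7. Ndfip1, an adaptor of Nedd4 ubiquitin ligases, passed on control 1, control 2 and control 4 and in no CIA rat, but its mean on the control arrays (-3.22) lay below the limit that the background set on the CIA arrays, so no fold is given. Fgf2, a growth factor for fibroblasts and endothelium, was well above background on CIA 1, control 4 and control 5, and Map2, a microtubule protein of neurons, on CIA 1, control 1 and control 5. Magoh, a core protein of the exon junction complex, was so on control 5 only.

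The repeated spots that were kept read alike where the signal was above background. Among the 300 combinations of a gene and an array, all kept spots were well above background in 97, none in 168, and the spots disagreed in 35. The SD between spots had a median of 0.153 (log2) where all spots were well above background, which is a coefficient of variation of 10.6%, and 0.305 where the spots disagreed. The error that the scanner software states for a spot had a median of 0.164 on the same scale where all spots were well above background. Where no spot was, the SD of 0.172 between spots is not a measure of how closely they read, since many of these values had been replaced by the software, which stated an error of 1.44. The software had marked 123 of 3000 spots as outliers of their probe, at most 3 of 10 on an array, and these were dropped. Over the 300 combinations the median SD between spots was 0.186 without them and 0.235 with them. Of the 123, 7 belonged to the 5 genes well above background on all arrays. Neither the median spot SD of those 5 genes, 0.127 ± 0.026 in CIA rats and 0.146 ± 0.039 in control rats (SD, n = 5 each), nor that of all 30 genes differed by more than the spread between arrays (two-sided exact permutation tests, p = 0.405 and p = 0.222).

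In the scaled levels, each of the 5 genes well above background on all arrays had a larger SD between rats than between spots. With 1 array per rat, the SD between rats also holds differences between arrays and slides, and these cannot be told apart. For Trim2, an E3 ubiquitin ligase, the median SD between spots was 0.109 and the pooled SD between rats of a group 0.530. For Pop7, a protein subunit of RNase P, which matures tRNA, the values were 0.115 and 0.552, and for P2rx2, a subunit of an ion channel opened by extracellular ATP, 0.114 and 0.409. Ppp2r2b, a regulatory subunit of protein phosphatase 2A, had the least even spots of the 5 (0.289), with 0.751 between rats after scaling. Before scaling its log2 signal ran from 3.37 to 4.20, and after scaling its level ran from -2.23 to -0.55. The spread of this gene between rats thus depends on the scaling. Before scaling, its pooled SD between rats was no larger than its SD between spots. The part of the variance of the scaled levels between rats that the averaged spots would give was between 0.463% and 2.72% for these 5 genes. Among genes above background on some arrays it reached 12.8% for Map2, 9.73% for Dlg4 and 8.97% for Pdk3. The arrays where these genes were not well above background are included.

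**Figure D2:**
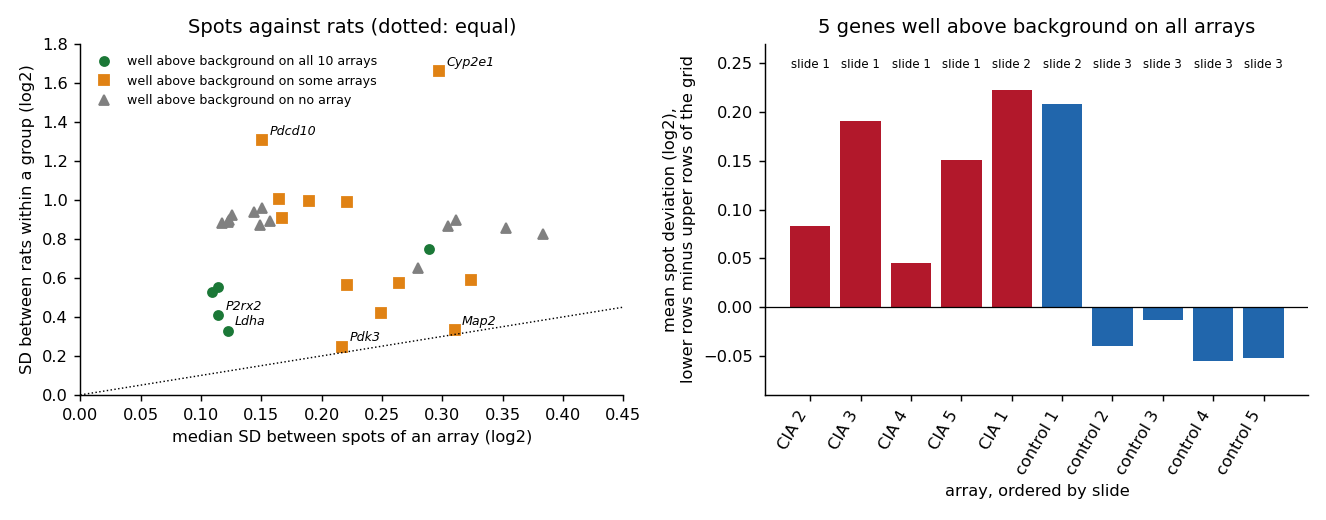
Left, the median SD between the spots of an array (x, log2) against the pooled SD of the scaled levels between rats within a group (y, log2). There is 1 point per gene with 5 rats per group, and the dotted line marks equal SDs. The green points, the genes well above background on all arrays, lie above the line, and the grey triangles are genes with no level above background. Right, the mean deviation of spots in rows 267 to 532 minus that in rows 1 to 266 (log2) for the 5 genes well above background on all arrays, 1 bar per array (red CIA, blue control), which is above 0 on slides 1 and 2 and below 0 on slide 3.

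The spots also showed where they lay. For the 5 genes well above background on all arrays, spots in the lower part of the grid (rows 267 to 532) read higher than those in the upper part (rows 1 to 266) on every CIA array, by 0.045 on CIA 4 to 0.223 on CIA 1. On control 1, which shared a slide with CIA 1, the difference was 0.208. On control 2 to control 5, which shared the third slide, it was between -0.0555 and -0.0127. Deviations of the 50 spots from their gene's mean on the array were compared between arrays by Pearson r. The median r was 0.38 over the 13 pairs of arrays on the same slide and 0.02 over the 32 other pairs. The ranges overlapped, from -0.01 to 0.82 on the same slide and from -0.25 to 0.55 for the other pairs. This is a description across spots, which are not independent. The repeats of a gene are spread from row 2 to row 528 of the grid, while most probes of the array have 1 spot.

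Between CIA rats and control rats, 0 of the 13 genes that could be tested differed in limma at an adjusted p under 0.05, as did 0% of all 21521 probes, over which the p-values were adjusted (Benjamini-Hochberg). Testing required a gene to pass the background on 5 or more of the 10 arrays, which left out 17 of the 30. Of all 38650 probes, 21521 met this rule. At an unadjusted p under 0.05 there was 1 gene of 13 (7.69%), P2rx2, higher in CIA rats, where 14.3% of all tested probes passed (5.77% higher and 8.56% lower). The methods' t-test on the same values gave 0 genes after adjustment and 1 before it, where it gave 0 and 3166 of all 21521 tested probes. The group ranges overlapped for all 13 genes, where they did not for 3.55% of all tested probes. Of the 13, 7 had a higher mean in CIA rats and 6 a lower one, where 48% of all tested probes had a higher mean, and the median log2 difference was 0.23, against -0.03 over all tested probes. The adjusted p of the 13 genes lay between 0.287 and 0.954.

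**Figure D3:**
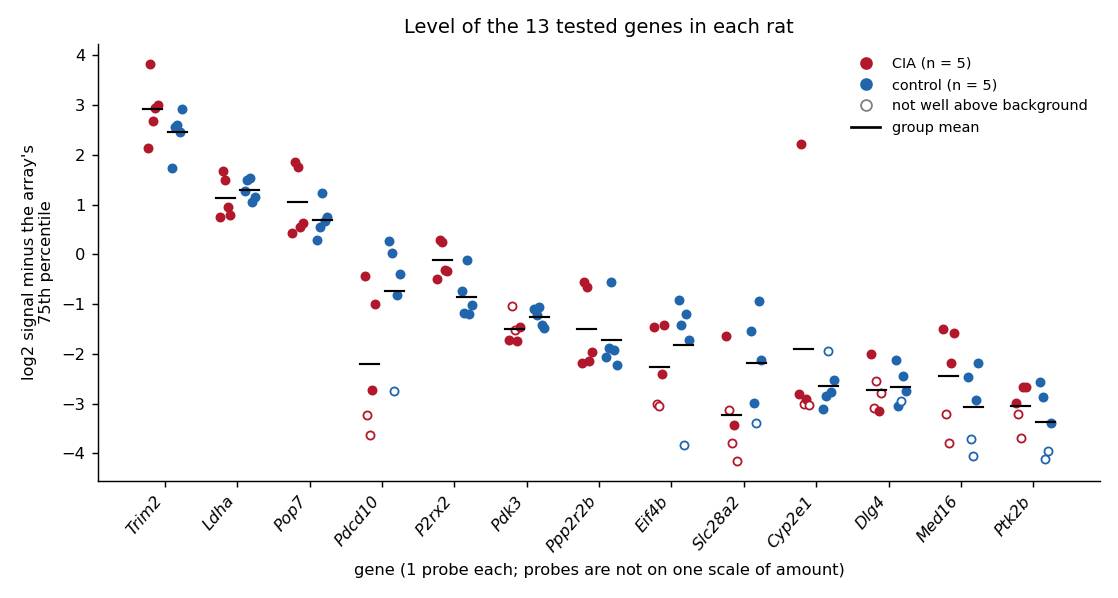
Level of the 13 tested genes in each rat (y, log2 signal minus the 75th percentile of the array), red for CIA and blue for control, with the group means as black lines and hollow points where the gene was not well above background. The points of the groups overlap for every gene, and Cyp2e1 on CIA 2 lies apart from all other arrays.

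P2rx2 had a higher level in most CIA rats than in most control rats. The channel that it forms lets cations in when ATP is released from cells and is known mainly from sensory and autonomic nerves. Its level was -0.50, 0.29, 0.25, -0.31 and -0.33 on CIA 1 to CIA 5. On control 1 to control 5 it was -0.75, -1.18, -0.12, -1.19 and -1.01. Control 3 alone reached into the CIA range, and every other control rat lay below every CIA rat. The means were -0.12 ± 0.37 and -0.85 ± 0.45 (SD, n = 5 each), a log2 difference of 0.73 (SE 0.29, 95% interval 0.10 to 1.36), which is a ratio of 1.66 (limma, adjusted p = 0.287, unadjusted p = 0.0278). All 10 spot positions, each taken alone, gave a higher mean in CIA rats, with differences from 0.53 to 0.87. Here and for the genes below, the positions share the RNA of the same rats. Their accord therefore describes the spots and is no support for a difference between the groups. The 3 dim arrays had the highest values of the gene, and without them the difference was 0.65 (limma, adjusted p = 0.113). Within the shared slide, CIA 1 exceeded control 1 by 0.24. Without scaling between arrays the difference was 0.53 (limma, adjusted p = 0.894), and after normexp background correction 0.32 (limma, adjusted p = 0.146).

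**Figure D4:**
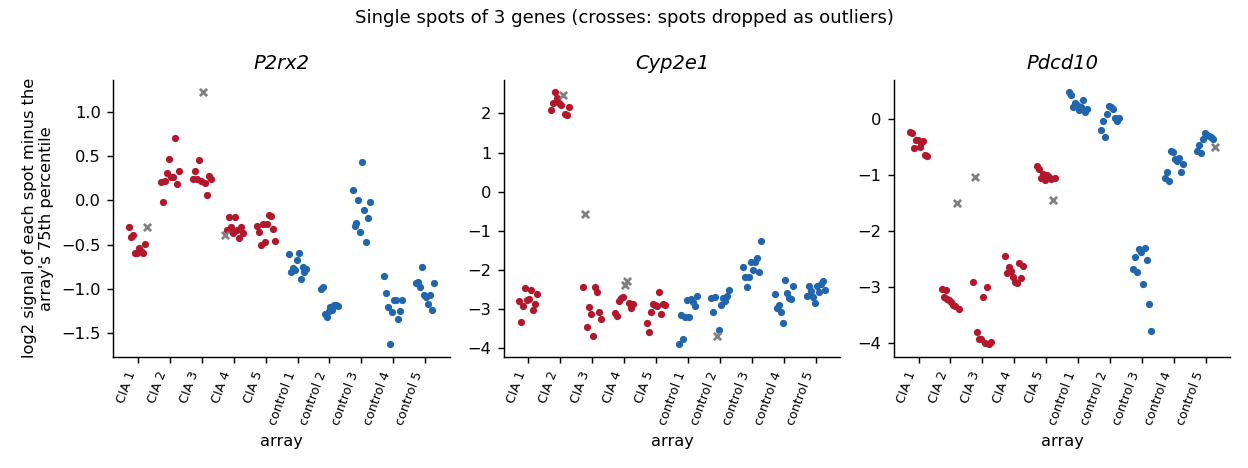
Every spot of P2rx2, Cyp2e1 and Pdcd10 on each array (y, log2 signal minus the 75th percentile of the array), red for CIA, blue for control and grey crosses for spots dropped as outliers. The 10 spots of an array lie close together in relation to the distances between rats, and all 10 spots of Cyp2e1 on CIA 2 lie above every spot of the other arrays.

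Cyp2e1, a cytochrome P450 that oxidizes ethanol and other small molecules and is known mainly from liver, was high in a single rat. Its level on CIA 2 was 2.21, and on CIA 1, CIA 3, CIA 4 and CIA 5 it was -2.81, -3.005, -2.90 and -3.02. On control 1 to control 5 it was -3.12, -2.86, -1.94, -2.77 and -2.53. On CIA 3, CIA 5 and control 3 the gene was not well above background, so these values are not measured levels. In scanner units without scaling, the signal on CIA 2 was 118, against 12.1 on the next array, control 5, where all spots were well above background, a ratio of 9.76. All 10 spots on CIA 2, of which 1 was left out of the mean as an outlier, were well above background and lay between 1.96 and 2.54, from row 5 to row 410 of the grid, while the highest spot on any other array was -0.58. In the log2 values of the authors, CIA 2 was at 7.70 and the next array at 3.75. Over all rats the log2 difference was 0.74 (SE 0.89, limma, adjusted p = 0.759). Without CIA 2 it was -0.29, and the 4 other CIA rats had -2.94 ± 0.10 (SD, n = 4). CIA 2 is 1 of the 3 dim arrays, and what sets this rat apart was not tested.

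Pdcd10 and Slc28a2 had the largest differences toward a lower mean in CIA rats. For Pdcd10 the level was -0.44, -3.23, -3.64, -2.72 and -1.0001 on CIA 1 to CIA 5 and 0.27, 0.02, -2.74, -0.81 and -0.39 on control 1 to control 5. The 3 dim arrays held the lowest value or values of each group, none of them well above background, so that these are not measured levels. The lowest level of any probe well above background was -1.07 on CIA 2, -1.71 on CIA 3 and -1.99 on control 3. The values of Pdcd10 there lay below these. The log2 difference was -1.47 (SE 0.71, 95% interval -3.03 to 0.09, limma, adjusted p = 0.372, unadjusted p = 0.0618), with these values included as they are. It was -0.36 after normexp (limma, adjusted p = 0.328) and -0.81 in the authors' log2 values (limma, adjusted p = 0.528). Each of the 10 spot positions gave a lower mean in CIA rats, from -1.75 to -1.07. Without the 3 arrays the difference was -1.16, and on the shared slide -0.71.
Slc28a2, a transporter that brings purine nucleosides into cells together with sodium, passed the background in 2 CIA rats and 4 control rats. Its level was -1.64 on CIA 1, -3.13 on CIA 2, -3.79 on CIA 3, -3.42 on CIA 4 and -4.15 on CIA 5. On control 1 to control 5 it was -1.54, -2.99, -3.38, -0.93 and -2.12. On CIA 2, CIA 3, CIA 5 and control 3 it was not well above background, so the values there are not measured levels. With them, the log2 difference was -1.03 (SE 0.55, limma, adjusted p = 0.423), and on the shared slide it was -0.10. It was -0.15 after normexp (limma, adjusted p = 0.420) and -0.49 in the authors' log2 values (limma, adjusted p = 0.573). All 10 spot positions gave a lower mean in CIA rats, from -1.78 to -0.63.

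None of the genes of pyruvate metabolism (Ldha, Pdk3), of RNA and translation (Pop7, Eif4b) or of transcription (Med16) reached an adjusted p under 0.05 in limma. Ldha, the lactate dehydrogenase that turns pyruvate to lactate, had 1.13 ± 0.42 in CIA rats and 1.30 ± 0.21 in control rats (SD, n = 5 each). The ranges were 0.75 to 1.67 and 1.05 to 1.53, so that the control rats lay within the range of the CIA rats. The log2 difference was -0.17 with a 95% interval from -0.74 to 0.40 (limma, adjusted p = 0.820), and 9 of 10 spot positions gave a lower mean in CIA rats. Pdk3, a kinase that switches off pyruvate dehydrogenase, had a difference of -0.24 (95% interval -0.76 to 0.27, limma, adjusted p = 0.682). CIA 1 minus control 1 was -0.53 for Ldha and -0.63 for Pdk3.
Pop7 ran from 0.44 to 1.86 in CIA rats and from 0.28 to 1.24 in control rats. Its values on CIA 2 (1.86), CIA 3 (1.75) and control 3 (1.24) were the highest, and without these 3 arrays its log2 difference went from 0.35 to -0.02. Med16, a subunit of the Mediator complex that links transcription factors to RNA polymerase, had -1.50, -3.21, -3.78, -2.18 and -1.59 on CIA 1 to CIA 5 and -2.47, -3.72, -4.05, -2.92 and -2.18 on control 1 to control 5. No spot of it was well above background on CIA 2, CIA 3, control 2 and control 3, whose values are not measured levels. With them its difference was 0.62 (SE 0.52, limma, adjusted p = 0.623), and without the 3 dim arrays 1.07 (SE 0.37, limma, adjusted p = 0.132, unadjusted p = 0.0197). It was 0.28 after quantile normalization (limma, adjusted p = 0.871) and 0.10 after normexp (limma, adjusted p = 0.563). All 10 spot positions of Med16 gave a higher mean in CIA rats. For Eif4b, which was not well above background on the 3 dim arrays, the difference over all arrays was -0.45 (SE 0.56, limma, adjusted p = 0.766). It was -0.95 without control 3 (SE 0.41, limma, adjusted p = 0.218, unadjusted p = 0.0391) and -0.23 without control 1, the ends of its range with each array left out, and -0.10 after normexp.

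Trim2 had a signal between 122 and 560 scanner units before scaling. Its level was 2.14, 3.83, 2.68, 2.95 and 3.004 on CIA 1 to CIA 5 and 1.74, 2.55, 2.60, 2.47 and 2.91 on control 1 to control 5. The log2 difference was 0.47 (95% interval -0.27 to 1.21, limma, adjusted p = 0.561), and its spot positions gave the narrowest range of differences, from 0.40 to 0.56. On the shared slide it was 0.41. The spots of this gene thus agreed on the difference, while the rats did not separate.
Ptk2b, the calcium-dependent kinase Pyk2 of leukocytes and osteoclasts, had a difference of 0.33 (SE 0.35, limma, adjusted p = 0.720). It was not well above background on CIA 2, CIA 3, control 3 and control 4, whose values are not measured levels. CIA 1 minus control 1 was -0.42. Ppp2r2b had -0.56 on CIA 2, -0.66 on CIA 3 and -0.55 on control 3, and between -2.23 and -1.88 on the 7 other arrays. These are the 3 dim arrays, and the difference between the groups was 0.23 with them and -0.07 without them. Dlg4, the scaffold PSD-95 of synapses, had -0.06 (95% interval -0.70 to 0.59, limma, adjusted p = 0.954), and 5 of its 10 spot positions gave a higher and 5 a lower mean in CIA rats.

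**Figure D5:**
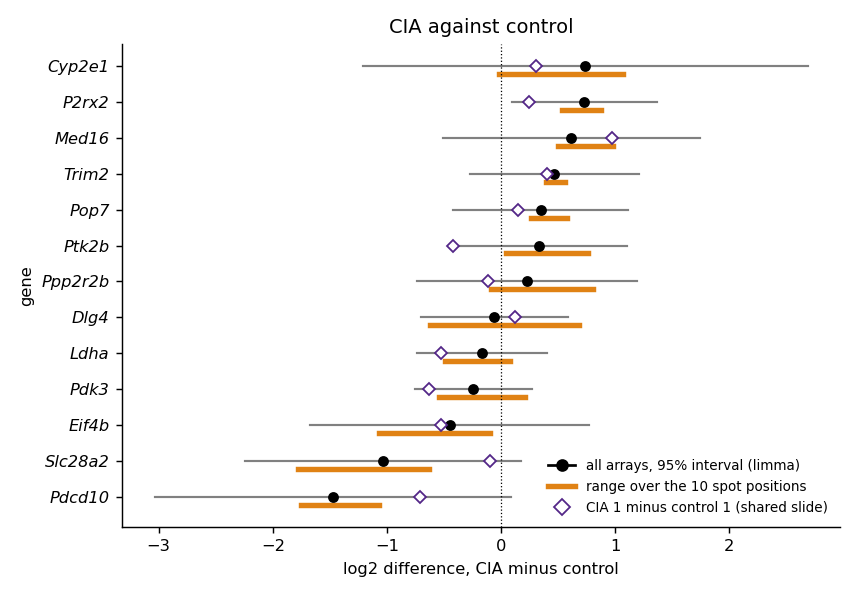
Log2 difference between CIA and control (x) for the 13 tested genes, with black points and grey lines for limma's estimate and 95% interval over all 10 arrays, orange bars for the range over the 10 spot positions each taken alone, and open diamonds for CIA 1 minus control 1. The interval lies to the right of 0 for P2rx2 only, before adjustment, and the orange bar of Dlg4 is about as wide as its interval.

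A single spot would have given another direction for 5 of the 13 genes at 1 or more positions. These were Dlg4, Cyp2e1, Ldha, Pdk3 and Ppp2r2b. For the other 8 genes all 10 positions agreed in direction, which describes the spots only, since all positions share the same rats. The SD of the difference over positions was between 0.16 and 1.23 times limma's standard error, smallest for Trim2 and largest for Dlg4. On the slide with both groups, 10 of the 13 genes had the same sign as over all arrays. The fit over all arrays includes these 2 arrays, so part of this accord is built in. The count over all tested probes was not made. The 13 genes that were never well above background had values between -5.99 and -3.04 relative to the 75th percentile. Without the filter, each of them had a higher mean in CIA rats, by 0.25 to 0.84, where 24185 of all 38650 probes had a higher mean. None of the 13 reached an adjusted p under 0.05 (limma, adjusted p from 0.585 to 0.825). Their median level was highest on CIA 2 (-3.16), CIA 3 (-3.85) and control 3 (-4.11), where the subtracted percentile was lowest. Before the percentile was subtracted the differences were 0.05 to 0.65, and these values are not given as expression. The median local background of an array was 15 to 16 on slide 1, 14 on slide 2 and 11 on slide 3. Its part in these differences was not tested.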

How the data were processed

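The authors deposited 1-colour intensity files of Agilent Feature Extraction 11.0.1.1 for 10 arrays (1 per rat), with background-subtracted processed signals not scaled between arrays. A second deposited table holds the authors' normalized log2 expression, whose method of normalization is not given in the sources used here. Flags for well above background, saturation and outliers and the place of each spot were used as deposited. The probes' grid names build rn4, while names came from RefSeq on GRCr8, so no gene coordinates are given besides the promoters.

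Spots flagged as not uniform or as population outliers were dropped. The log2 processed signals of the kept spots of a probe were averaged, and the array's 75th percentile over the 38650 probes was subtracted. The 154 other probes were left out. Groups were compared with limma 3.58.1 in R 4.3.3 (lmFit, eBayes, condition only, Benjamini-Hochberg over 21521 probes), tested on simulated data first. Single values were compared with exact permutation tests over arrays (Python 3.11.15, scipy 1.17.1). All genes that the accession rule matched are named. The genes, lists and tests were chosen with earlier results of these data known. Alternatives were quantile normalization, normexp (offset 50, on the median signal of a spot) with quantile normalization, the authors' log2 values, other filters, replicate and slide blocks, the methods' t-test, the median over spots, no scaling, and each array left out. The fit without 3 arrays and single spot positions were added after seeing the data. Precision is limited by having 5 arrays in each group.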

Additional observations from a re-analysis of the deposited data

Results flagged for a closer look

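Within each group of 5 arrays, the array at either end was compared with its neighbour, as the gap in relation to the group's range. Of 68 groups of values, 5 held an array past the 95% critical value of 0.71, where chance gives about 3.4.
Cyp2e1 on CIA 2 (2.21) lay apart by 0.960 of the range of the CIA arrays, with all 10 spots in accord. Eif4b on control 3 (-3.82), where it was not well above background, lay below the other control arrays. Ppp2r2b on control 3 (-0.55) and LOC108352165 on control 3 (-3.92) lay above the other control arrays, and LOC108352165 was well above background on no array. The difference between the lower and the upper rows of the grid on control 1 (0.208) lay above those of the other control arrays, which were on another slide, and was close to that of CIA 1 on its own slide (0.223). No explanation was tested for these values.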

How the results depend on the processing

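No gene had an adjusted p under 0.05 in any of the 22 alternatives (the lowest adjusted p was 0.113), and all 278 differences recomputed in them kept their sign except 13. The sign was the same throughout for 8 genes, P2rx2, Pdcd10, Slc28a2, Med16, Trim2, Ldha, Pdk3 and Eif4b, except that single spot positions turned it for Ldha (0.0802) and Pdk3 (0.21).
Against 1 gene with an unadjusted p under 0.05, quantile normalization gave 2, slide as a random block 2, slide as a block 0, no scaling between arrays 0, and the fit without the 3 dim arrays 2. Over all 21521 tested probes, the main fit gave 3084, quantile normalization 3567 and slide as a random block 4407. No scaling gave 1248, the fit without the 3 dim arrays 5719, and slide as a block 102 of 21502. With single arrays left out the count ran from 0 (without CIA 2, CIA 3, control 2, control 4 or control 5) to 4 (without control 3), and was 3 without CIA 1 and 2 without CIA 5. Over all tested probes it ran from 1797 (without control 2) to 4458 (without control 3). The replicate block gave 4 in limma, where 5215 of all 21521 tested probes passed. The 4 were P2rx2 (log2 difference 0.73, limma, adjusted p = 0.140), Pdcd10 (-1.47, adjusted p = 0.120), Med16 (0.62, adjusted p = 0.132) and Slc28a2 (-1.03, adjusted p = 0.191). The deviations of same-numbered arrays had an r of 0.46, -0.08, 0.75, 0.44 and 0.53 for replicates 1 to 5, and 2 of 5 CIA arrays correlated best with the control array of their own number, so the numbers were not taken as pairs.
Normexp gave a smaller difference in size for all 13 genes. The log2 difference of Dlg4 (-0.06) was 0.0040 after normexp, 0.12 with slide as a block, 0.0091 with the median over spots and -0.23 to 0.075 with each array left out. That of Cyp2e1 was -0.29 to 1.02 with each array left out, lowest without CIA 2, and -0.0944 without the 3 dim arrays. Ppp2r2b had -0.11 with slide as a block, -0.0725 without the 3 dim arrays and -0.0074 (without CIA 2) to 0.52 with each array left out. Pop7 had -0.0248 without the 3 dim arrays and Ptk2b -0.42 with slide as a block. Single spot positions gave -0.0137 for Cyp2e1, 0.68 for Dlg4 and -0.0868 for Ppp2r2b. The median SD between spots was 0.186 and with all spots kept 0.235. The median log2 difference of all probes was -0.22 without scaling between arrays and 0.21 without the filter on dim probes. The cause of these changes was not tested.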
